A study of Mus musculus with 9 samples.

Results

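Axon guidance ligands and receptors were followed in RNA-seq libraries from cells sorted as mouse retinal ganglion cells, which send their axons through the optic nerve. Members were chosen by name from the gene families of the semaphorins (classes 3 to 7), plexins, neuropilins, ephrins, Eph receptors, Slits, Robos, netrins, Dcc and Unc5 receptors, and Nogo receptors with Lingo1. Of 24772 entries in the deposited gene table, 75 carried such a name, and 59 of them had at least 10 counts in at least 3 of the 9 libraries. The remaining 16 fell below that count. The choice used the count level and no difference between groups. Efna1 and Rtn4rl2, however, reached 10 counts only in libraries from injured retinas, so the rule favoured finding them higher after injury. Ephb4, Rtn4rl2 and Sema4c were just inside, with exactly 3 libraries, while Epha6 and Efna3 were just outside, with 2. One member, Unc50, matched by its name only: it encodes a Golgi protein, known in Caenorhabditis elegans from acetylcholine receptor assembly, and is no netrin receptor.

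The cells had been sorted by flow cytometry from retinas of 3 groups, with 3 RNA-seq libraries in each. CKO cells came from mice with a conditional knockout in amacrine cells (inhibitory interneurons of the inner retina) of Slc30a3, which encodes the zinc transporter ZnT3, at day 3 after optic nerve crush. ONC cells came from wild-type retinas, also at day 3 after the crush, an injury that severs ganglion cell axons. Ctrl cells came from wild-type retinas without injury. The sources used here give no strain, age or sex and do not name the promoter or Cre line behind the knockout. There was no uninjured knockout group, so in CKO against Ctrl the injury and the genotype cannot be told apart. Whether replicate libraries stem from different animals is not stated, so the p-values cover the spread among these libraries, and that spread may be technical.

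Guidance molecules act in ligand and receptor pairs. Slits bind Robos and repel, netrins attract axons through Dcc and repel through Unc5 receptors, semaphorins act through plexins with or without neuropilins, and ephrins signal through Eph receptors in contacts between cells. In the developing visual system these pairs steer ganglion cell axons to the optic disc, across or away from the midline at the chiasm, and to their map positions in the brain. Nogo receptors bind inhibitors of the adult nerve, and several of these families stay expressed in the mature retina.

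Upstream sequences are printed for 4 members on which the comparisons below turn: the ligand Slit2 and its receptors Robo1 and Robo2, each lower after crush, and Efna1, which was close to absent without injury. Each is the 250 bases before a RefSeq start of transcription on GRCm38.p6, read 5′ to 3′ on the strand of the gene.
Slit2, chr5:47982905-47983154, plus strand: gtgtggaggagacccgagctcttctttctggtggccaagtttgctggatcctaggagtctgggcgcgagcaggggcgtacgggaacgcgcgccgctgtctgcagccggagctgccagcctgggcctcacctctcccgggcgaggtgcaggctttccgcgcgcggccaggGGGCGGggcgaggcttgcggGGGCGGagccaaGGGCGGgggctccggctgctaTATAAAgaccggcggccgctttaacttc
Robo1, chr16:72662899-72663148, plus strand: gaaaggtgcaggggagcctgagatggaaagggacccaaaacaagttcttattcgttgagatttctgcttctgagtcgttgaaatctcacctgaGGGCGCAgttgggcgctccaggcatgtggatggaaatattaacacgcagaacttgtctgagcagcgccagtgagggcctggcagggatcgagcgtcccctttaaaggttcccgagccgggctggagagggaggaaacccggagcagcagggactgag
Robo2, chr16:74411826-74412075, minus strand: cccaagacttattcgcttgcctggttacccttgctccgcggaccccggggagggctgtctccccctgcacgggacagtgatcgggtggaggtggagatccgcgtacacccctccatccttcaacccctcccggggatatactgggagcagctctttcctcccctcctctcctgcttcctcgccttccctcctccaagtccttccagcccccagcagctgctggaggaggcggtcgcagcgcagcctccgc
Efna1, chr3:89279646-89279895, minus strand: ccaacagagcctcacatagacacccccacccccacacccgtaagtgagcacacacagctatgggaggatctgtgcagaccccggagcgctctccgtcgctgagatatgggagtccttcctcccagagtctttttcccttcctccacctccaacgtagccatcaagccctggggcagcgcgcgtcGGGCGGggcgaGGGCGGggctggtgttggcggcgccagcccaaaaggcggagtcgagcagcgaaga
In GENCODE M21 the Robo2 stretch directly precedes the annotated gene and the Slit2 stretch reaches 17 bases into the first exon. Those of Robo1 and Efna1 lie before internal starts and are intronic for longer transcripts. Stretches before other RefSeq starts of Efna1 (chr3:89280952-89281201) and Robo2 (chr16:75092771-75093020 and chr16:75447294-75447543) are not printed. That of Efna1 held 1 GC box, and those of Robo2 held no match to the motifs below. Capitals mark matches, on either strand, to 6 motifs. The AP-1 letters searched were TGANTCA, and those of STAT factors were TTCNNNGAA. The cAMP response element was searched as TGACGTCA, the GC box as GGGCGG and the TATA box as TATAAA. The metal response core was searched as TGCACNC and, in its other spelling, as TGCGCNC. The Slit2 stretch held 3 GC boxes and 1 TATA box, with 69.6% G or C and 25 CpG dinucleotides. The Robo1 stretch held 1 metal response core at 56.0% G or C. The Efna1 stretch held 2 GC boxes at 64.4%, and that of Robo2 held no match at 65.6%. None of the 4 held the AP-1, STAT or cAMP letters. Over 66 such stretches that matched 50 members, 48 held a GC box (72.7%), against 32.7% of 32851 stretches over all genes. The AP-1 letters stood in 3 of the 66 (4.55%), against 6.75% of all, and the metal response core in 21 (31.8%), against 21.4%. A match is a description of letters, not of a bound site.

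The libraries held 14166996 to 25571715 counts. The 58 members other than Unc50 together took 0.0374% to 0.0438% of the counts in CKO libraries, 0.0405% to 0.0517% in ONC libraries and 0.0482% to 0.0548% in Ctrl libraries, so ONC overlapped both other groups and CKO lay below Ctrl. Values below are CPM (counts scaled to library size with TMM factors), ONC libraries go by the number of their table column (3, 5 and 6, given in that order), and a gene was called at an adjusted p under 0.05 in edgeR's quasi-likelihood test over all genes. ONC column 5 stood apart from columns 3 and 6: it correlated with them at r = 0.933 and 0.937 across genes (log2 CPM), while columns 3 and 6 correlated at 0.992 and each column 5 to CKO pair at 0.952 to 0.954. Counts of column 5 differed from those of columns 3 and 6 by a chi-square of 112 and 100 per degree of freedom, against 9.58 to 18.8 for the other pairs within a group. It was used as ONC, as its column is named, and whether that name is right cannot be settled here. The targeted gene Slc30a3 had 1 to 4 counts in CKO libraries, 0 or 1 in ONC libraries and 2 to 16 in Ctrl libraries, which is too few to check the knockout. Markers of the sorted type were scarce and those of other retinal cells were abundant. The 12 ganglion cell markers summed to 110 to 144 CPM in CKO, 105 to 180 CPM in ONC and 142 to 246 CPM in Ctrl libraries. The 7 cone photoreceptor markers summed to 6130 to 6970 CPM in CKO, 4980 to 6760 CPM in ONC and 5040 to 6290 CPM in Ctrl, and the 8 bipolar cell markers to 1270 to 1420 CPM in CKO, 977 to 1390 CPM in ONC and 1210 to 1390 CPM in Ctrl. Markers of the labelled type did not lead, and the values below are levels of these libraries as a whole. The 4 horizontal cell markers (52.2 to 99.2 CPM), 4 pericyte markers (at most 5.81 CPM) and 8 markers of microglia and macrophages (at most 3.29 CPM) were lower. In such bulk samples, fewer cells of a type and less RNA per cell cannot be told apart, and which cells a guidance transcript came from cannot be read from these libraries.

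Most guidance genes were expressed at low levels. On the authors' FPKM scale, which corrects for gene length and was used for CKO and Ctrl only, 26 of the 58 members other than Unc50 averaged at least 1 FPKM over these 6 libraries, 7 averaged at least 5, and 20 averaged under 0.5. The median was 0.851 FPKM and the lowest mean was 0.08, that of Ephb4. Slit2 had the highest mean over the 6 libraries, at 7.93 ± 1.98 FPKM in CKO and 17.5 ± 0.42 FPKM in Ctrl (SD, n = 3 each). After it came the secreted semaphorin Sema3f, at 8.60 ± 1.10 FPKM in CKO and 10.7 ± 3.29 FPKM in Ctrl, and the receptor Plxna2, at 8.32 ± 1.67 FPKM in CKO and 8.03 ± 0.43 FPKM in Ctrl. In CKO both stood above Slit2, by less than the spread. Epha7, Sema4d, Plxnb2, Rtn4rl1 and Robo2 followed, with means over the 6 libraries of 6.53, 6.23, 6.08, 5.73 and 4.26 FPKM. Unc50, the gene matched by name only, stood far above them at 327 ± 24.4 FPKM in CKO and 317 ± 24.4 FPKM in Ctrl.

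**Figure D1:**
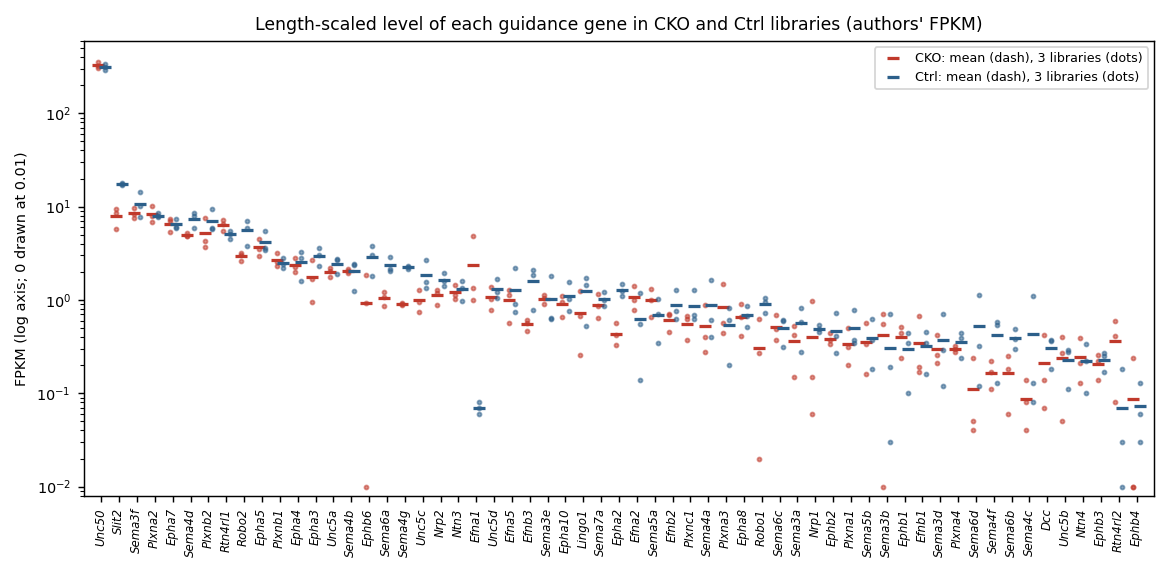
Length-scaled level of the 59 members, Unc50 included, ordered by their mean, in FPKM as deposited (log axis, values of 0 drawn at 0.01). Dots are the 3 libraries of CKO and of Ctrl and dashes are their means: apart from Unc50 at 327 and 317 FPKM, levels spanned from Slit2 at 7.93 FPKM in CKO and 17.5 FPKM in Ctrl down to Ephb4, with a median of 0.851.

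The families differed in how many genes reached the count rule. All 5 EphB receptors, all 6 class 4 and all 4 class 6 semaphorins, all 3 ephrin-Bs, both neuropilins, Dcc and all 4 Unc5 receptors Unc5a to Unc5d did. So did 7 of 9 EphA receptors, 7 of 9 plexins, 5 of 7 class 3 semaphorins, 3 of 5 ephrin-As, 2 of 4 Robos and 2 of 4 netrins. Of the Slits, Slit2 did, and Slit1 and Slit3 did not. Among genes known from retinal axon guidance or growth inhibition, Slit1, Ntn1 and Rtn4r were below the rule. Ntn1, the netrin that draws ganglion cell axons into the optic disc, had 2, 5 and 2 counts in CKO libraries, 1, 0 and 0 in ONC libraries, and 3, 2 and 1 in Ctrl libraries. Rtn4r, the first described Nogo receptor, had 0, 0 and 7 counts in CKO, 0, 1 and 0 in ONC and 0, 7 and 10 in Ctrl libraries.

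Crush was set against no injury in wild-type retinas to ask which guidance genes respond to axon damage. Of the 58 members tested (all but Sema4c, with Unc50 among them), 12 were called, 5 higher and 7 lower in ONC. That is 20.7% of the members, against 25.8% of all genes tested, so guidance genes were called about as often as genes at large. Of all genes, 13% were called higher and 12.8% lower. ONC and Ctrl libraries did not overlap for 23 members, 9 higher and 14 lower, where 39.5% of all genes did not overlap. The median log2 change was -0.187 over the members and -0.039 over all genes. CKO against Ctrl gave 5 called members, 1 higher and 4 lower (8.62%, against 8.89% of all genes, of which 4.32% higher and 4.58% lower). Its groups did not overlap for 16 members, 4 higher and 12 lower, where 35.7% of all genes did not overlap, and the median log2 change was -0.259 over the members and -0.012 over all genes. Fitted on the 6 libraries of each pair of groups, ONC against Ctrl gave 11 members (18.2% of all genes). CKO against Ctrl gave 7 members (19.4%) in such a fit, so the numbers called do not rank these comparisons. CKO against ONC, the comparison of the genotypes after injury, gave 1 called member, which was lower (1.72%, against 0.865% of all genes, 0.587% higher and 0.278% lower). At an unadjusted p under 0.05 it gave 15 members, and 15 did not overlap (6 higher and 9 lower), where 26.2% of all genes did not overlap. Its median log2 change was -0.118 over the members and -0.016 over all genes. The share of all genes at that unadjusted p was not counted, here or below. Such counts therefore show nothing particular to the guidance genes. In all, 13 members were called in at least 1 comparison. The first and second comparison share the Ctrl libraries, and 4 members were called in both, each in the same direction.

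**Figure D2:**
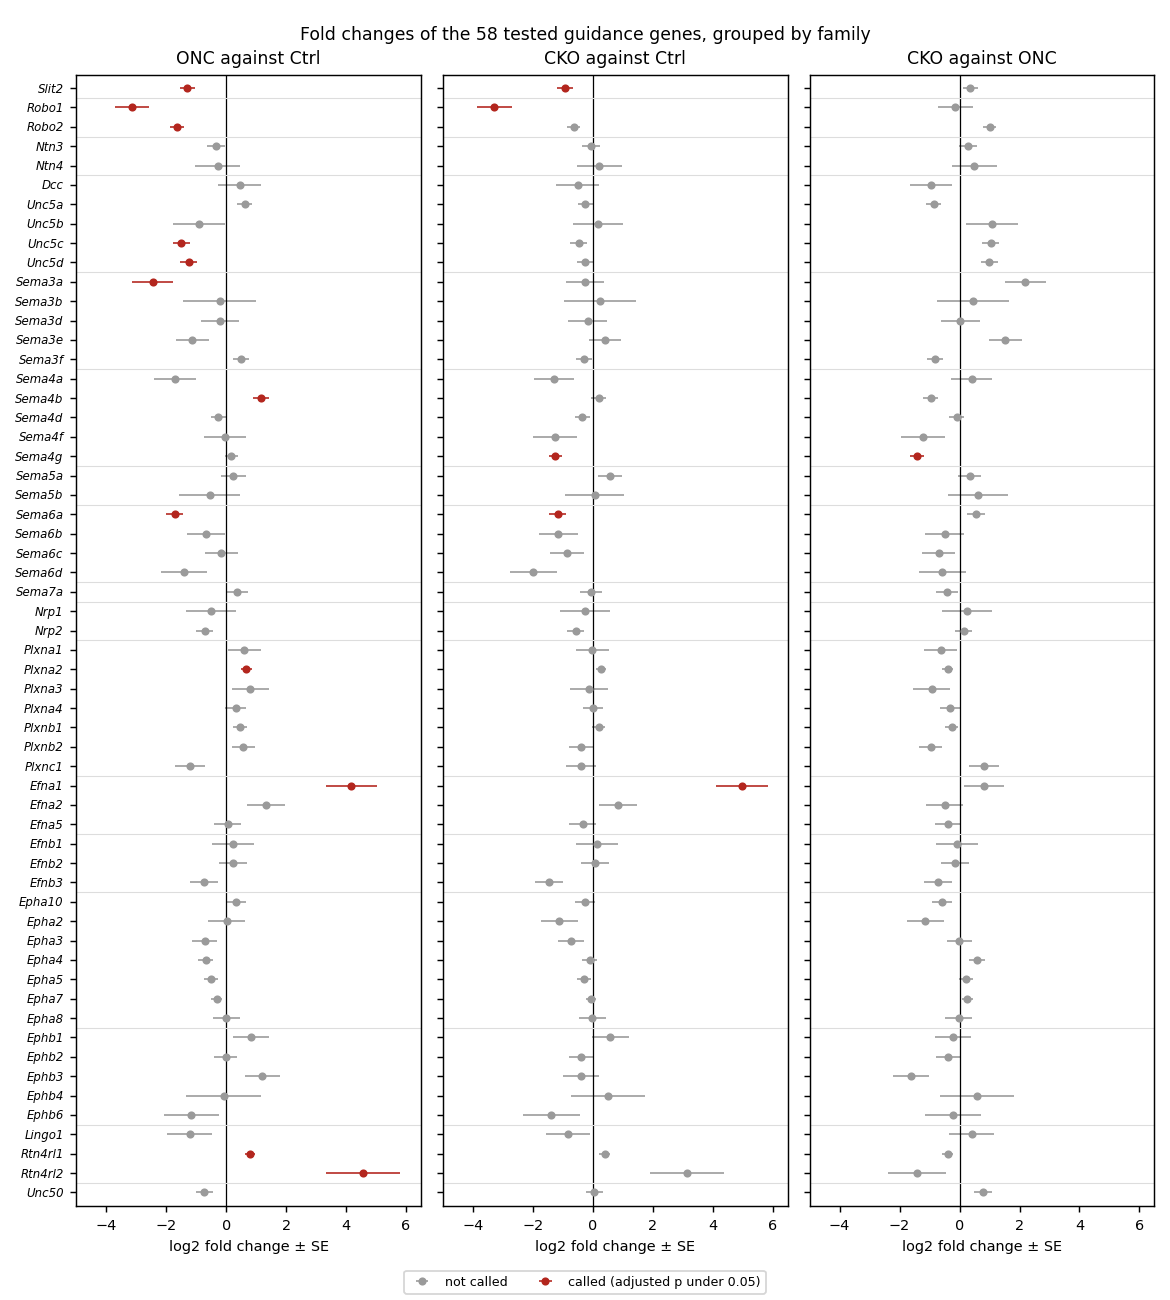
Log2 fold change with its standard error for the 58 tested members (lines), grouped by family from Slits at the top to Nogo receptors and Unc50 at the bottom, in ONC against Ctrl, CKO against Ctrl and CKO against ONC (panels). Red points were called at an adjusted p under 0.05 in edgeR's test: 12, 5 and 1 of the 58, with Robo1, Slit2 and Sema6a called left of 0 and Efna1 called far right of 0 in both comparisons against Ctrl.

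The 1 Slit and 2 Robos tested were each called lower in ONC against Ctrl, where 12.8% of all genes were called lower. Slit2, the secreted repellent (chr5:47983138-48307733, plus strand, GRCm38), stood at 49.8, 73.7 and 64.6 CPM in CKO libraries, at 36.9, 74.3 and 35.4 CPM in ONC libraries, and at 119.5, 128 and 112 CPM in Ctrl libraries. Every library from crushed retinas was below every Ctrl library, and ONC column 5 lay with the CKO libraries. Slit2 fell in ONC (log2 change -1.30 ± 0.26 SE, adjusted p = 0.00611) and in CKO (-0.94 ± 0.26, adjusted p = 0.0435), both against Ctrl. CKO against ONC was not called (0.36 ± 0.26, adjusted p = 0.385). Without ONC column 5 the fall in ONC was -1.68 (adjusted p = 1.19e-06) and CKO against ONC was 0.75 and called (adjusted p = 0.00125). The ONC group was then columns 3 and 6 alone, which correlated at 0.992 and may not be separate samples. Of all genes, 36.7% were then called in CKO against ONC, and 0.0122% with columns 3 and 6 summed as 1 library. These limits hold for every gene below that is given without column 5. With column 5 as the only ONC library, ONC against Ctrl was -0.66 and not called (adjusted p = 0.0578), where the lone library is assumed to vary like the other groups.

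Robo1, one of the Slit receptors (chr16:72308306-73046095, plus strand), had 0.183, 0.710 and 0.472 CPM in CKO libraries, 0.614, 0.345 and 0.542 CPM in ONC libraries, and 5.59, 4.27 and 3.68 CPM in Ctrl libraries. The 6 crush libraries were all far below the 3 Ctrl libraries and overlapped one another. The falls were the largest called among the members: -3.15 ± 0.57 in ONC (adjusted p = 0.00423) and -3.29 ± 0.58 in CKO (adjusted p = 0.00657), both against Ctrl. CKO and ONC differed by -0.14 ± 0.57 (adjusted p = 0.904). On the authors' FPKM scale Robo1 had 0.02, 0.27 and 0.63 FPKM in CKO libraries and 0.95, 0.73 and 1.06 FPKM in Ctrl libraries, so the groups did not overlap there either but lay closer.

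Robo2, the Slit receptor with the higher level here (chr16:73891839-74411825, minus strand), had 17.9, 15.97 and 17.8 CPM in CKO libraries, 6.84, 11.1 and 7.96 CPM in ONC libraries, and 27.9, 30.5 and 22.0 CPM in Ctrl libraries. No pair of groups overlapped: ONC was lowest, CKO lay between, and Ctrl was highest. Robo2 fell in ONC against Ctrl (-1.64 ± 0.22, adjusted p = 0.0014). CKO against ONC was 1.0 ± 0.22 and just missed the threshold (adjusted p = 0.0512), and CKO against Ctrl was -0.64 ± 0.22 (adjusted p = 0.0939). The fit of CKO and Ctrl libraries alone, the replicate block, DESeq2 and the fit without ONC column 5 called Robo2 lower in CKO than in Ctrl. RLE size factors, library totals, other filters and leaving out any other library did not. Without ONC column 5, CKO against ONC was 1.17 and called (adjusted p = 0.000492), with the limits given for Slit2.

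Markers of amacrine cells, which also express guidance genes in the retina, were also lower in both crush groups than in Ctrl. The 9 amacrine markers (Gad1, Gad2, Slc6a9 and others; none at 0 in all libraries and 1 below 10 counts in each) summed to 130 to 148 CPM in CKO, 177 to 198 CPM in ONC and 423 to 505 CPM in Ctrl libraries. Of the 8 tested, 5 fell in ONC and 5 in CKO against Ctrl, and 1 fell in CKO against ONC. Of all genes, 12.8%, 4.58% and 0.278% were called lower in these comparisons. As a percentage of the Ctrl mean, the amacrine sum stood at 28.1% to 32.0% in CKO and 38.3% to 42.9% in ONC, Slit2 at 41.5% to 61.4% in CKO and 29.5% to 61.9% in ONC, and Robo1 at 4.07% to 15.7% in CKO and 7.66% to 13.6% in ONC. Robo2 stood at 59.6% to 66.9% in CKO and 25.5% to 41.2% in ONC, so it was higher in CKO than in ONC while the amacrine sum was lower. The 12 ganglion cell markers summed to 59.9% to 79.0% of the Ctrl mean in CKO and 57.6% to 98.4% in ONC. The 98.4% was that of ONC column 5, which was the highest crush library here, as it was for Slit2. The 6 pigment epithelium markers, of which 3 had fewer than 10 counts in each library, summed to 122 to 142 CPM in CKO, 104 to 184 CPM in ONC and 344 to 522 CPM in Ctrl. Of their 2 tested genes, 1 fell in ONC and 1 in CKO, both against Ctrl, and ONC column 5 had the highest sum after the Ctrl libraries, as it did for Slit2. The part of these cell types in the falls was not tested.

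**Figure D3:**
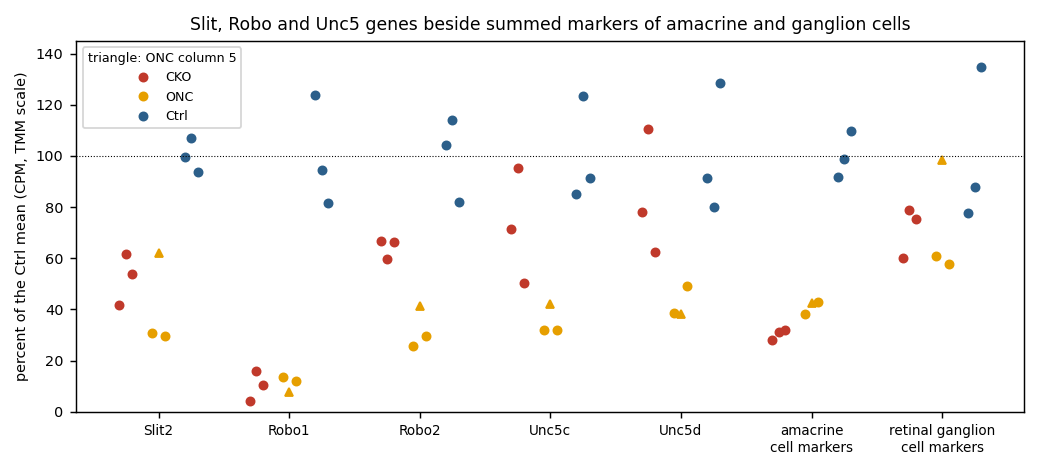
Slit2, Robo1, Robo2, Unc5c and Unc5d and the summed amacrine and ganglion cell markers in each library, as a percentage of the Ctrl mean (CPM, TMM scale; triangles are ONC column 5). Robo1 was at most 15.7% of the Ctrl mean in every crush library, Robo2 was at 59.6% to 66.9% in CKO and 25.5% to 41.2% in ONC, and the amacrine sum was at 28.1% to 32.0% in CKO and 38.3% to 42.9% in ONC.

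Among netrin receptors, the repulsive receptors Unc5c and Unc5d fell after crush and Dcc, Unc5a and Unc5b were not called. Unc5c (chr3:141465216-141834924, plus strand) had 8.94, 11.9 and 6.32 CPM in CKO libraries, 3.99, 5.28 and 4.0 CPM in ONC libraries, and 10.7, 15.5 and 11.5 CPM in Ctrl libraries. ONC was below both other groups without overlap, and CKO overlapped Ctrl. The change in ONC against Ctrl was -1.50 ± 0.29 (adjusted p = 0.00556), that in CKO against ONC 1.04 ± 0.29 (adjusted p = 0.0712) and that in CKO against Ctrl -0.46 (adjusted p = 0.357). Unc5c overlaps the antisense gene Gm15688, and reads of the pair could not be told apart.

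Unc5d (chr8:28646717-29219636, minus strand), which also binds FLRT proteins, had 9.26, 13.1 and 7.40 CPM in CKO libraries, 4.60, 4.54 and 5.84 CPM in ONC libraries, and 10.8, 9.52 and 15.3 CPM in Ctrl libraries. Its order of groups was that of Unc5c, with ONC below both others. Unc5d fell in ONC against Ctrl (-1.25 ± 0.29, adjusted p = 0.0105). That call was lost without ONC column 3 (adjusted p = 0.0532) or Ctrl replicate 3 (0.0548). CKO against ONC was 0.99 ± 0.29 (adjusted p = 0.075). Without ONC column 5 the CKO to ONC differences of both receptors were called, at 1.14 for Unc5c (adjusted p = 0.0102) and 0.88 for Unc5d (0.0367).

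Unc5a, the Unc5 receptor with the highest length-scaled level, went the other way. It had 7.84, 6.66 and 8.25 CPM in CKO libraries, 15.4, 10.6 and 15.5 CPM in ONC libraries, and 10.1, 9.94 and 7.12 CPM in Ctrl libraries. ONC was above both other groups without overlap, but the calls were missed (0.61 ± 0.24 in ONC against Ctrl, adjusted p = 0.0835, and -0.87 ± 0.24 in CKO against ONC, adjusted p = 0.0721). Unc5a shares its locus with Hk3 on the opposite strand. Dcc, the attractive netrin receptor, had 0.688, 2.00 and 0.330 CPM in CKO, 1.58, 3.16 and 1.13 CPM in ONC and 0.831, 1.61 and 1.86 CPM in Ctrl libraries, with groups that overlapped. Ntn3, the netrin with the higher level of the 2 members, averaged 6.11 ± 1.09 CPM in CKO, 4.98 ± 1.07 CPM in ONC and 6.34 ± 1.59 CPM in Ctrl (SD, n = 3 each), and was not called. Ntn3 overlaps Tbc1d24 on its own strand and BC028777 on the other, and reads of these genes could not be told apart.

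Semaphorins held 4 called members in 3 classes. Sema6a, a transmembrane ligand of plexins A2 and A4 that shapes neurite layers in the inner retina (chr18:47235598-47368870, minus strand), had 4.91, 6.97 and 3.63 CPM in CKO libraries, 3.68, 3.31 and 3.63 CPM in ONC libraries, and 13.7, 10.5 and 10.9 CPM in Ctrl libraries. The crush libraries of both genotypes were all below the Ctrl libraries. Sema6a fell in ONC (-1.72 ± 0.29, adjusted p = 0.00323) and in CKO (-1.18 ± 0.29, adjusted p = 0.0269), and CKO against ONC was 0.55 (adjusted p = 0.243). The other class 6 members, Sema6b, Sema6c and Sema6d, were not called. The log2 changes of the 4 class 6 members lay between -1.72 and -0.17 in ONC and between -1.98 and -0.86 in CKO, both against Ctrl, on the same Ctrl libraries.

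Sema3a, the secreted semaphorin that collapses growth cones (chr5:13125414-13602565, plus strand), had 2.48, 0.799 and 1.89 CPM in CKO libraries, 0.175, 0.395 and 0.542 CPM in ONC libraries, and 2.26, 2.94 and 1.03 CPM in Ctrl libraries. ONC was below both other groups and CKO overlapped Ctrl. Sema3a fell in ONC against Ctrl (-2.46 ± 0.70, adjusted p = 0.0249), and CKO against ONC was 2.19 ± 0.69 (adjusted p = 0.0861). The fall was lost when ONC column 3 (adjusted p = 0.107), ONC column 6 (0.0555), Ctrl replicate 1 (0.0648) or Ctrl replicate 2 (0.0843) was left out.

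Sema3f, which repels axons through neuropilin 2 and was the class 3 member with the highest level, had 27.0, 21.9 and 26.2 CPM in CKO libraries, 52.4, 27.2 and 52.0 CPM in ONC libraries, and 39.9, 21.9 and 30.7 CPM in Ctrl libraries. Columns 3 and 6 were the highest of the 9, and column 5 lay within the range of Ctrl. CKO against ONC was -0.81 ± 0.27 and not called (adjusted p = 0.093). Without column 5 it was -1.11 and called (adjusted p = 0.0006).

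In class 4, Sema4b rose after crush in wild-type retinas and Sema4g was lower in CKO. Sema4b, a transmembrane semaphorin (chr7:80186841-80226527, plus strand), had 6.42, 6.08 and 7.07 CPM in CKO libraries, 11.8, 12.8 and 13.7 CPM in ONC libraries, and 4.16, 7.0 and 6.01 CPM in Ctrl libraries. All ONC libraries, column 5 included, were above all others, and CKO overlapped the top of Ctrl. The rise in ONC against Ctrl was 1.16 ± 0.25 (adjusted p = 0.00831), and CKO against ONC was -0.97 ± 0.25 (adjusted p = 0.0634). Without ONC column 5, CKO against ONC was -1.01 and called (adjusted p = 0.00961).

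Sema4g, another transmembrane class 4 member (chr19:44989101-45003397, plus strand), was the called member of CKO against ONC. It had 4.08, 3.77 and 3.91 CPM in CKO libraries, 11.7, 10.02 and 9.84 CPM in ONC libraries, and 9.28, 8.82 and 9.88 CPM in Ctrl libraries. The 3 CKO libraries lay close together and below all 6 wild-type libraries, and ONC overlapped Ctrl. Sema4g was lower in CKO than in ONC (-1.42 ± 0.22, adjusted p = 0.0294) and lower in CKO than in Ctrl (-1.25 ± 0.22, adjusted p = 0.0071), while ONC against Ctrl was 0.17 ± 0.22 (adjusted p = 0.592). The call against Ctrl stood in all 18 other analyses. That against ONC stood in 6 of 17: it was lost when any library other than ONC column 5 was left out, with adjusted p up to 0.149, and its log2 change stayed between -1.53 and -1.36 over all 17. Sema4c passed the count rule but was too low for the test, at 0.138, 0.266 and 0.283 CPM in CKO, 0.351, 0.296 and 0.542 CPM in ONC, and 1.20, 0.280 and 0.395 CPM in Ctrl libraries.

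Sema4d, a plexin-B1 ligand and the class 4 member with the highest length-scaled level, averaged 6.46 ± 0.197 CPM in CKO, 6.91 ± 0.725 CPM in ONC and 8.25 ± 1.89 CPM in Ctrl. Sema5a, which can inhibit retinal axons, averaged 9.65 ± 3.26 CPM in CKO, 7.66 ± 1.02 CPM in ONC and 6.52 ± 3.43 CPM in Ctrl. Sema7a, a membrane-anchored ligand of plexin C1, averaged 2.90 ± 0.845 CPM in CKO, 3.88 ± 1.20 CPM in ONC and 3.03 ± 0.237 CPM in Ctrl (SD, n = 3 each). None of these 3 was called in any comparison.

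**Figure D4:**
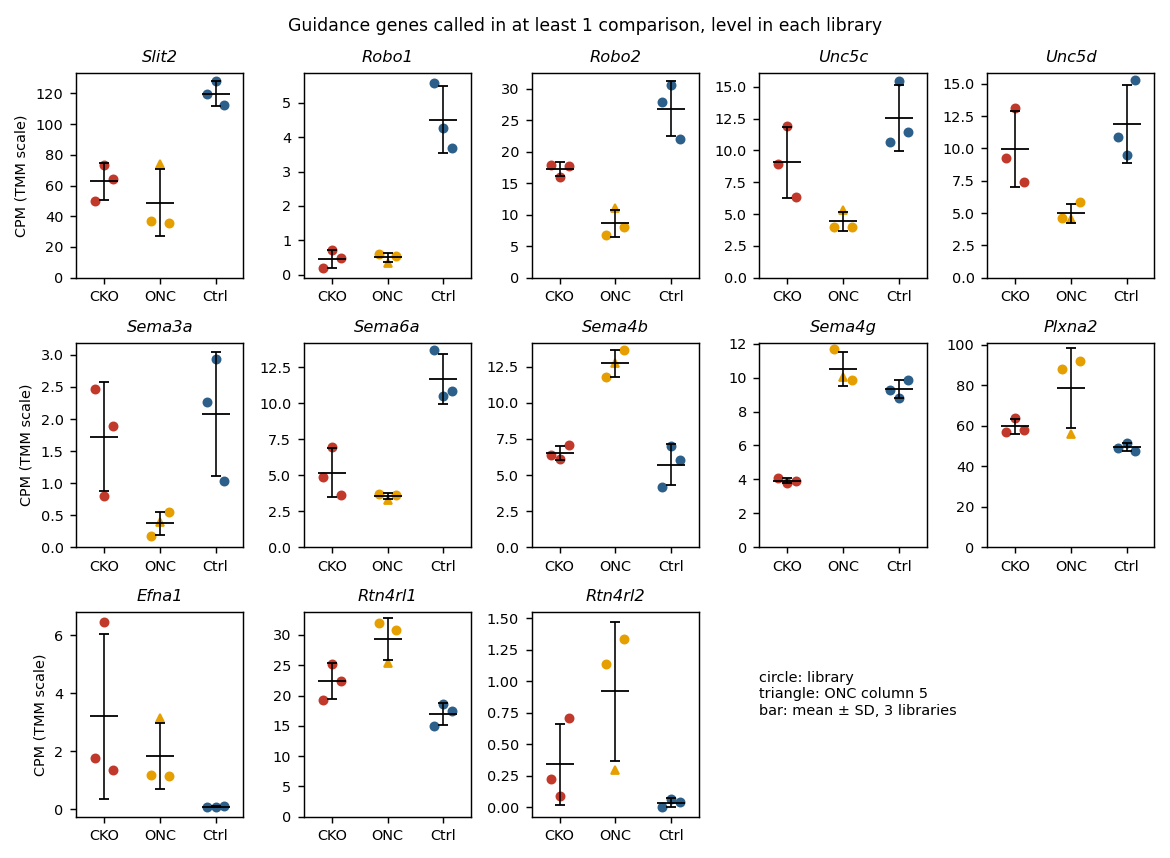
Level in each library (CPM, TMM scale) of the 13 guidance genes called in at least 1 comparison, with mean and SD of the 3 libraries of CKO, ONC and Ctrl (triangles are ONC column 5). Slit2, Robo1 and Sema6a were low in both crush groups, at most 74.3, 0.710 and 6.97 CPM, Unc5c, Unc5d and Sema3a were lowest in ONC, Sema4b was highest in ONC, and Sema4g was low in CKO alone, at most 4.08 CPM.

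Plexins, the semaphorin receptors, held 1 called member. Plxna2, which binds class 6 semaphorins and pairs with neuropilins (chr1:194618218-194816869, plus strand), had 56.8, 64.0 and 58.2 CPM in CKO libraries, 88.1, 56.0 and 92.1 CPM in ONC libraries, and 49.2, 51.5 and 47.6 CPM in Ctrl libraries. All ONC libraries were above Ctrl, but column 5 lay between the Ctrl libraries and the lowest CKO library. Plxna2 rose in ONC against Ctrl (0.67 ± 0.18, adjusted p = 0.0181), a call lost without ONC column 3 (0.0614), without ONC column 6 (0.0685) and without Ctrl replicate 3 (0.0551). Without column 5 the rise was 0.92 (adjusted p = 1.12e-05), against 0.21 with column 5 as the only ONC library (adjusted p = 0.477, on the same assumption about the lone library). CKO against ONC was -0.40 (adjusted p = 0.168), and -0.64 without column 5 (adjusted p = 0.000367).

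Of the 7 plexins, 6 had a positive log2 change in ONC against Ctrl, 1 of them called, where 25 of the 58 tested members were positive. In column 5, Plxna3, Plxna4, Plxnb1 and Plxnb2 lay below the Ctrl mean, and Plxna1 and Plxna2 above it. The former had 1.83, 3.45, 18.9 and 4.34 CPM in column 5, against Ctrl means of 2.39, 4.02, 20.5 and 5.51 CPM. Plxna4, the receptor with which Sema6a and Sema3a signal, had 3.76, 4.26 and 3.96 CPM in CKO, 5.22, 3.45 and 6.21 CPM in ONC and 4.43, 4.90 and 2.73 CPM in Ctrl libraries, and was not called. The neuropilins were not called either. Nrp1, the binding receptor of Sema3a, had 0.458, 3.33 and 0.189 CPM in CKO, 1.32, 0.987 and 1.04 CPM in ONC and 1.48, 1.68 and 1.62 CPM in Ctrl libraries, and CKO replicate 2 alone lay above Ctrl. Nrp2, the receptor of Sema3f, had 6.42, 5.77 and 8.40 CPM in CKO, 4.38, 6.12 and 8.21 CPM in ONC and 11.7, 10.01 and 9.05 CPM in Ctrl libraries. Every crush library was below every Ctrl library for Nrp2, but ONC against Ctrl (-0.71 ± 0.29, adjusted p = 0.0847) and CKO against Ctrl (-0.58 ± 0.29, adjusted p = 0.243) missed the threshold.

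Among ephrins, Efna1, a membrane-anchored ligand of EphA receptors (chr3:89271733-89281142, minus strand), was near absent in Ctrl. It had 1.79, 6.48 and 1.37 CPM in CKO libraries, 1.18, 3.16 and 1.17 CPM in ONC libraries, and 0.0923, 0.0700 and 0.119 CPM in Ctrl libraries. The Ctrl values rest on 6 counts over the 3 libraries, against 214 counts in CKO and 119 in ONC. No Ctrl library reached 10 counts. Efna1 thus became a member through crush libraries alone, and its rises are not independent of the count rule. Efna1 was 31.9-fold higher in CKO than in Ctrl (95% counting interval 14.4 to 87.8) and 18.8-fold higher in ONC than in Ctrl (8.37 to 52.1), where the intervals cover counting error only. Both rises were called by edgeR (adjusted p = 0.00616 for CKO and 0.00664 for ONC), and CKO against ONC was not (log2 change 0.81 ± 0.66, adjusted p = 0.457). CKO replicate 2 and ONC column 5 were the highest of their groups. Without CKO replicate 2, the log2 change in CKO against Ctrl was 3.97, against 4.98 with it, and CKO against ONC was -0.25. The log2 change in ONC against Ctrl was 3.58 without ONC column 5, against 4.17 with it. Both rises kept their calls.

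Müller glia markers, which stand for the radial glia of the retina, were also higher in both crush groups than in Ctrl. Their 8 members, none at 0 in all libraries, summed to 987 to 1090 CPM in CKO, 832 to 1330 CPM in ONC and 640 to 671 CPM in Ctrl libraries. Of the 8, 5 rose in CKO and 7 in ONC, both against Ctrl, where 4.32% and 13% of all genes were called higher. ONC column 5 had the lowest sum of the crush libraries (832 CPM) and the highest Efna1 of its group (3.16 CPM). Columns 3 and 6 had sums of 1330 and 1255 CPM, above every CKO library. The 3 astrocyte markers summed to 9.49 to 12.7 CPM in CKO, 3.31 to 3.54 CPM in ONC and 1.27 to 1.43 CPM in Ctrl libraries, and the 6 endothelial markers to 36.7 to 43.4 CPM in CKO, 32.6 to 40.7 CPM in ONC and 27.4 to 32.7 CPM in Ctrl. Their part in the rise of Efna1 was not tested.

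Of the 17 other ephrins and Eph receptors, 0 were called in any comparison by edgeR, where 25.8% of all genes were called in ONC against Ctrl, 8.89% in CKO against Ctrl and 0.865% in CKO against ONC. At an unadjusted p under 0.05 there were 2 between CKO and ONC, 1 between CKO and Ctrl and 2 between ONC and Ctrl, and DESeq2 called Ephb3 between CKO and ONC, Efnb3 between CKO and Ctrl, and 0 between ONC and Ctrl. When ONC column 5 was left out, edgeR called Epha3, Epha5 and Epha7 in ONC against Ctrl, Ephb3 in CKO against ONC and Efnb3 in CKO against Ctrl. Without Ctrl replicate 3 it called Epha4 in ONC against Ctrl. Over the 12 Eph receptor members, log2 changes in ONC against Ctrl lay between -0.72 and 0.33 for the 7 EphA receptors and between -1.16 and 1.20 for the 5 EphB receptors. Epha7, with the highest length-scaled level of the EphA receptors, had 31.4, 35.1 and 26.2 CPM in CKO, 23.5, 31.5 and 22.3 CPM in ONC and 35.8, 30.5 and 30.5 CPM in Ctrl libraries. Epha5, a receptor that reads the ephrin-A gradient in map formation, had 17.1, 21.7 and 15.1 CPM in CKO, 13.2, 19.4 and 14.01 CPM in ONC and 19.0, 27.0 and 20.1 CPM in Ctrl libraries. In both, ONC columns 3 and 6 were the 2 lowest libraries and column 5 overlapped Ctrl.

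Ephb1, which turns ventrotemporal ganglion cell axons away from the chiasm, had 1.56, 2.09 and 1.08 CPM in CKO, 2.19, 1.18 and 2.17 CPM in ONC and 1.25, 0.350 and 1.50 CPM in Ctrl libraries, with overlap, and it shares its locus with Gm26846 on the opposite strand. Ephb2, which guides axons within the retina, averaged 2.24 ± 0.0690 CPM in CKO, 2.91 ± 0.547 CPM in ONC and 2.95 ± 0.991 CPM in Ctrl. Ephb6, a receptor without kinase activity and the EphB member with the highest length-scaled level, had 0, 1.20 and 0.802 CPM in CKO, 0.658, 0.938 and 0.750 CPM in ONC and 1.85, 1.75 and 1.66 CPM in Ctrl libraries. All 6 crush libraries were below Ctrl for Ephb6, with adjusted p of 0.412 in CKO and 0.379 in ONC.

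Of the remaining ephrins, Efna5, the ligand of the retinal map, averaged 3.97 ± 1.51 CPM in CKO, 5.19 ± 0.274 CPM in ONC and 5.01 ± 3.18 CPM in Ctrl. Efnb1, which is bound by EphB receptors, averaged 1.11 ± 0.920 CPM in CKO, 1.18 ± 0.219 CPM in ONC and 0.994 ± 0.458 CPM in Ctrl. Efnb2, the ligand that Ephb1 meets at the chiasm, averaged 2.95 ± 0.678 CPM in CKO, 3.25 ± 1.66 CPM in ONC and 2.80 ± 0.702 CPM in Ctrl (SD, n = 3 each). Efnb3, an ephrin known from the spinal midline and from myelin, had 1.93, 1.77 and 1.46 CPM in CKO, 3.07, 1.58 and 3.84 CPM in ONC and 5.63, 6.30 and 2.41 CPM in Ctrl libraries. CKO was below Ctrl without overlap, at -1.47 ± 0.47 and not called (adjusted p = 0.0769). The fit of CKO and Ctrl libraries alone called Efnb3 (adjusted p = 0.0386), and that with the replicate block did not (0.059).

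Among receptors for growth inhibitors, both Nogo receptor homologues rose after crush in wild-type retinas. Rtn4rl1, a receptor that binds chondroitin sulphate proteoglycans (chr11:75193783-75267769, plus strand), had 19.3, 25.2 and 22.4 CPM in CKO libraries, 31.9, 25.4 and 30.8 CPM in ONC libraries, and 15.0, 18.6 and 17.5 CPM in Ctrl libraries. The 3 groups did not overlap, with ONC highest and CKO between. Rtn4rl1 rose in ONC against Ctrl (0.79 ± 0.18, adjusted p = 0.00985), while CKO against Ctrl (0.39, adjusted p = 0.204) and CKO against ONC (-0.40, adjusted p = 0.176) were not called. Without ONC column 5, CKO against ONC was -0.53 and called (adjusted p = 0.0251).

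Rtn4rl2, a receptor of myelin-associated glycoprotein (chr2:84871924-84886710, minus strand), was at the lower edge of detection. It had 0.229, 0.0887 and 0.707 CPM in CKO libraries, 1.14, 0.296 and 1.33 CPM in ONC libraries, and 0, 0.0700 and 0.0395 CPM in Ctrl libraries, where 2 counts were seen in all, against 22 in CKO and 64 in ONC. The count rate was 30.3-fold higher in ONC than in Ctrl (95% counting interval 8.04 to 255), and 9.83-fold higher in CKO than in Ctrl (2.42 to 86.2). Rtn4rl2 met the count rule through crush libraries alone, so these rises are not independent of that rule. The rise in ONC was called (adjusted p = 0.0198) and that in CKO was not (0.146). The call was lost without ONC column 3 (0.0708), ONC column 6 (0.0789), Ctrl replicate 1 (0.0706) or Ctrl replicate 3 (0.0699). Lingo1, grouped here with the Nogo receptors, had 0.596, 0.710 and 0.943 CPM in CKO, 0.701, 0.197 and 0.792 CPM in ONC and 0.831, 2.45 and 0.751 CPM in Ctrl libraries and was not called.

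The 3 ONC libraries did not measure the guidance genes alike. Column 5 was at least 1.5-fold higher than the mean of columns 3 and 6 for 11 members, at least 1.5-fold lower for 22 and within that fold for 26, whereas columns 3 and 6 were within 1.5-fold of each other for 51 of 59. For 37 members, column 5 was nearer to the CKO mean than the mean of columns 3 and 6 was (log2 scale, 0.1 CPM added). This count does not measure how near column 5 lay to columns 3 and 6. For Sema4b (12.8 CPM) and Sema4g (10.02 CPM) column 5 stood with columns 3 and 6, as did its astrocyte marker sum (3.31 to 3.54 CPM over the 3 columns). Without column 5, all 12 members called in ONC against Ctrl were called again and 21 were called in all, and CKO against ONC had 16 called members in place of 1, 7 higher and 9 lower. Of all genes, 46.4% and 36.7% were then called in these comparisons. With column 5 as the only ONC library, assumed to vary like the other groups, 6 members were called in ONC against Ctrl, 4 of them shared with the 12 (Efna1, Robo1, Robo2 and Sema6a), and 0 in CKO against ONC by edgeR, where 6 had an unadjusted p under 0.05. Of all genes, 6.62% and 0.0512% were then called. With columns 3 and 6 summed as 1 library, 9 of the 12 were called again and 0 members in CKO against ONC by edgeR, where 8 had an unadjusted p under 0.05. Of all genes, 11.8% and 0.0122% were then called.

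**Figure D5:**
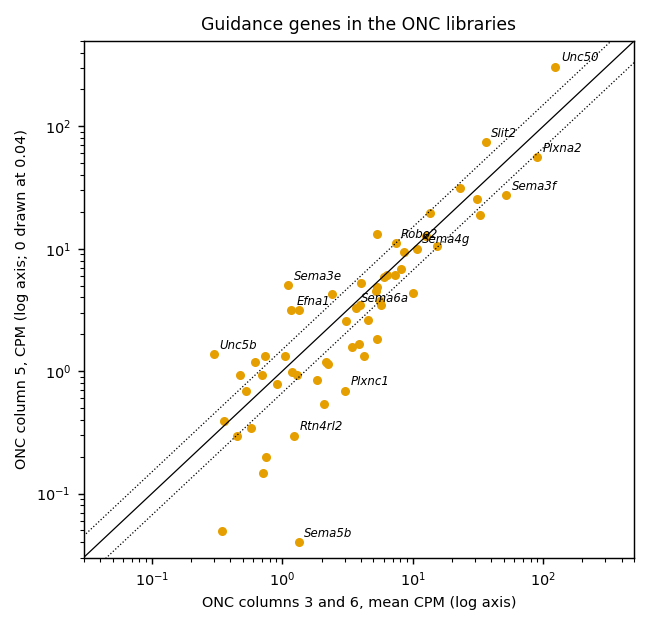
CPM of the 59 members, Unc50 included, in ONC column 5 against the mean of ONC columns 3 and 6 (both log axes), with the line of equality and dotted lines at 1.5-fold. Points above the upper dotted line are the 11 genes higher in column 5, Slit2 and Efna1 among them, and points below the lower one are the 22 lower in it, Sema3f and Plxna2 among them.

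In CKO against Ctrl, the calls of Slit2 and Sema6a depended on the libraries fitted. The Slit2 call was lost when any 1 library of CKO or Ctrl was left out (adjusted p = 0.0764 to 0.172), and that of Sema6a without CKO replicate 1 or 3 (0.105 each), Ctrl replicate 1 (0.111), 2 (0.0521) or 3 (0.0714). Calls over all genes fell as well, from 8.89% to between 2.81% and 5.64%, when 1 CKO or Ctrl library was left out. Leaving out any 1 ONC library, which is in the shared fit but not in this comparison, kept both calls. Without ONC column 5 the adjusted p was 0.000199 for Slit2 and 0.00781 for Sema6a, with 21.4% of all genes called. Slit2 and Sema6a kept their direction, with log2 changes of -1.06 to -0.78 for Slit2 and -1.44 to -0.97 for Sema6a over 18 other analyses. Robo1, Sema4g and Efna1 kept their calls in all analyses of CKO against Ctrl in which they could be tested.

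Genes that act downstream of or beside these families were counted from 3 lists, to be read against all genes, of which edgeR called 25.8% in ONC against Ctrl, 8.89% in CKO against Ctrl and 0.865% in CKO against ONC. DESeq2 called 14.2% of all genes in CKO against ONC. The 137 genes that edgeR called there became 2 to 8 when any single library other than ONC column 5 was left out. Of 47 tested genes of guidance signalling inside the cell, 4 rose and 2 fell in ONC against Ctrl (6 of 47), 0 were called in CKO against ONC by edgeR (8 at an unadjusted p under 0.05, 5 by DESeq2) and 1 fell in CKO against Ctrl. Their median log2 change in ONC against Ctrl was 0.146, against -0.039 over all genes. Enah, an actin filament elongation protein, averaged 181.7 ± 5.25 CPM in CKO, 185 ± 27.7 CPM in ONC and 395 ± 67.9 CPM in Ctrl (SD, n = 3 each, as below) and fell in ONC (-1.09 ± 0.15, adjusted p = 0.00158) and in CKO (-1.12 ± 0.15, adjusted p = 0.00246). Dpysl3, a collapsin response mediator, averaged 252 ± 15.1 CPM in CKO, 362 ± 122 CPM in ONC and 159 ± 18.04 CPM in Ctrl and rose in ONC (1.19 ± 0.22, adjusted p = 0.00428). Its relative Dpysl2, which relays Sema3a signals, fell in ONC (-0.60 ± 0.15, adjusted p = 0.0164), and Gipc1, an adaptor that binds neuropilin 1, rose (1.54 ± 0.27, adjusted p = 0.00396).

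Of 19 tested myelin and matrix inhibitors and their receptors, 3 rose and 2 fell in ONC against Ctrl, where 25.8% of all genes were called, 0 were called in CKO against ONC by edgeR (6 at an unadjusted p under 0.05, 6 by DESeq2), and 1 fell in CKO against Ctrl. Ptprd, of the receptor phosphatase family that binds proteoglycans, fell in ONC (-0.99 ± 0.15, adjusted p = 0.00208), and the proteoglycan core protein Bcan fell in CKO (adjusted p = 0.0453) and in ONC (adjusted p = 0.0126), at 0.0917, 0.178 and 0.142 CPM in CKO libraries, 0.0877, 0.148 and 0 CPM in ONC libraries and 0.554, 1.82 and 2.49 CPM in Ctrl libraries. Chpf, which extends chondroitin chains, rose in ONC (1.24 ± 0.27, adjusted p = 0.00883), as did Ngfr, the p75 co-receptor of Nogo receptors (1.04 ± 0.29, adjusted p = 0.024).

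Of 31 tested genes for other cues and receptors, 2 rose and 5 fell in ONC against Ctrl (25.8% of all genes), 1 rose in CKO against ONC (0.865%), and 1 rose and 2 fell in CKO against Ctrl (8.89%). The adhesion molecule Cntn4 averaged 28.3 ± 1.94 CPM in CKO, 14.2 ± 3.12 CPM in ONC and 40.5 ± 2.41 CPM in Ctrl, a fall in ONC against Ctrl (-1.51 ± 0.18, adjusted p = 0.0011) and a rise in CKO against ONC (1.0 ± 0.18, adjusted p = 0.037). Alcam, another adhesion molecule of retinal axons, fell in ONC (-2.13 ± 0.35, adjusted p = 0.00297), and the adhesion molecules Nfasc (0.92, adjusted p = 0.00915) and Ncam1 (0.64, adjusted p = 0.00984) rose. In CKO against Ctrl the neurotrophin Bdnf rose (1.45 ± 0.38, adjusted p = 0.036), and L1cam, an adhesion molecule of growing axons (-1.64 ± 0.45, adjusted p = 0.0442), and Ntng1, a membrane-anchored netrin relative (-0.69 ± 0.19, adjusted p = 0.0442), fell. Ntng1 fell alike in ONC against Ctrl (-0.68 ± 0.19, adjusted p = 0.0225). Bdnf (1.045, adjusted p = 0.061) and L1cam (-0.84, adjusted p = 0.177) moved the same way there and were not called. CKO against ONC called none of these genes.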

How the data were processed

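Amplified cDNA was made into libraries by tagmentation, per the labels' protocols. The labels call the libraries stranded, but such a kit does not mark the strand. Trimmomatic 0.36 and the builds GRCm38 and mm10 were used, per the submitters' processing notes, while the aligner, counter and annotation are not given in the sources used here. Each gene has an expected count and an FPKM value per library, per the file headers. The expected count values were deposited without normalization, and the FPKM values were scaled to gene length and depth by the authors. The ONC columns are numbered 3, 5 and 6 where the labels give 1 to 3, so they carry no replicate number, and 3 FPKM columns of ONC were not used. Symbols matched for 21956 of 21970 Ensembl identifiers (GENCODE M21).

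Counts were rounded to whole numbers and fitted in R 4.3.3 with edgeR 4.0.16 (filterByExpr by group, 15841 genes, TMM, quasi-likelihood test, 1 model over 9 libraries, no covariate, Benjamini-Hochberg adjustment over all genes), after a test on simulated data. Every adjusted p of a gene is from this fit unless another is named. Alternatives were DESeq2 1.42.0, RLE size factors, library totals, other filters, pairwise fits, leaving out each library, regrouped ONC columns and a replicate block. Libraries hold no molecular identifiers, so counting intervals cover counting error only. Columns 3 and 6 of ONC were the most alike pair (chi-square per degree of freedom 9.58, against 13.9 to 18.8 for pairs within CKO and Ctrl). They differed by more than sampling noise, which does not show that they are separate samples; they were kept as separate libraries, and summed in an alternative.

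Named genes are those called in any comparison, the member with the highest FPKM in each family, members known from retinal axon guidance, and, per pathway list and comparison, up to 4 called genes with the lowest p. The members and lists were chosen with earlier results of these data known. One further pathway list and 1 marker list are not reported here.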

Additional observations from a re-analysis of the deposited data

How the results depend on the processing

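In ONC against Ctrl, 12 members were called. The count was 9 to 13 under RLE factors, library totals, other filters, DESeq2, a fit of 6 libraries and summed ONC columns 3 and 6, 6 with ONC column 5 alone, and 8 to 21 when 1 library was left out. In CKO against Ctrl, 5 were called, with 4 to 7 under other settings and 3 to 7 with 1 library left out. Of all genes, 8.89% were called, with 5.86% to 19.4% under other settings and 2.81% to 21.4% with 1 library left out. In CKO against ONC, 1 was called, with 1 under RLE factors, 3 under library totals, 2 with no expression filter, 2 with a stricter one, 10 by DESeq2 (14.2% of all genes), and 0 by edgeR in the fit of 6 libraries (13 at an unadjusted p under 0.05, and 2 of 15022 genes called), with ONC columns 3 and 6 summed (8) and with column 5 alone (6). Leaving out 1 library gave 0 to 16, the 16 without ONC column 5 (36.7% of all genes). The calls over all genes moved likewise, with 2 to 8 genes called in place of 137 without any other library. The cause of these differences was not tested. No called member changed sign in any of these analyses. Efna1, Robo1, Robo2 and Sema6a kept their calls in ONC against Ctrl in every analysis that could test them. Replicate numbers of CKO and Ctrl did not pair the libraries: deviations of same-numbered libraries correlated at 0.002, 0.015 and 0.008, and not every library correlated best with its own number. With the replicate block, 6 members were called in CKO against Ctrl, the 5 named and Robo2. Depth limits the low members: Efna1 and Rtn4rl2 had 6 and 2 counts in all in Ctrl, so their folds have wide counting intervals.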

Other observations

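Among the family genes below the count rule, Epha6, an EphA receptor of the nervous system, had 3, 6 and 1 counts in CKO libraries, 0 in each ONC library and 8, 24 and 23 counts in Ctrl libraries. Its Ctrl libraries were the highest of the 9, and it was in no comparison. Slit1, the Slit best known from the developing optic chiasm, had 0, 1 and 0 counts in CKO, 7, 0 and 12 in ONC libraries (columns 3, 5 and 6) and 0, 8 and 6 in Ctrl libraries.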
